A study of Mus musculus with 8 samples.

Results

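The collagen and laminin genes were taken by name from the 55681 probes of a mouse expression array. They are the genes whose symbol is Col or Lam followed by a chain number, 54 genes with 80 probes, of which 43 are collagens and 11 are laminins. A gene entered the test if it had a probe that the scanner software marked as well above background on 4 or more of 8 arrays, and its brightest such probe stood for it. That left 34 of 43 collagens and 11 of 11 laminins, 45 genes, among 23608 genes and unnamed probes tested. The 9 genes that were not tested were Col4a3, Col6a5, Col6a6, Col10a1, Col13a1, Col15a1, Col17a1, Col24a1 and Col28a1. Col4a3 was above background on 1 anti-CD4 and 1 control array, Col24a1 on 1 anti-CD4 and 0 control arrays, and the other 7 on none.

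The arrays measured hippocampal total RNA of female C57BL6/J mice, 8 weeks old, that had spent 4 weeks in an enriched environment, a cage with more space and objects to explore. The mice of one group had been given anti-CD4 antibody, which binds a coreceptor carried by helper T cells (n = 4), and those of the other a control antibody (n = 4). Mice of both groups were enriched, so housing does not differ between them, and the depletion itself was not measured here. Whether the samples were separate animals is not in the labels, so p-values measure only how far these samples scatter, and that scatter may be technical. The comparison addresses whether loss of CD4+ T cells changes hippocampal gene expression, and the genes described here carry the extracellular matrix part of that question.

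Collagens are triple helices of 3 chains. Fibrillar collagens pack into the cables that give the meninges and the outer coat of vessels their strength, and in brain they come mainly from fibroblasts of the meninges and of larger vessels. Type IV collagen and the laminins, trimers of an alpha, a beta and a gamma chain, each polymerise into a sheet, and the sheets together make the basement membrane around every brain vessel and beneath the pia. The remaining collagens decorate fibrils, form beaded filaments or short networks, or span the membrane of neurons and other cells.

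Levels below are relative signals, the log2 signal of a probe minus the 75th percentile of its array, so 0 is that percentile. A difference is the anti-CD4 mean minus the control mean, also in log2, from a limma fit over all 23608 rows. The correlation between arrays was 0.988 to 0.996 for pairs of the same group and 0.986 to 0.994 for pairs of different groups, and each array had 51.1% to 54.3% of its probes well above background. On the slide the anti-CD4 samples took 1 row and the control samples the next, so row and treatment cannot be told apart. In bulk tissue, fewer cells of a type and less RNA per cell cannot be told apart either. Markers of neurons (6 of 6 tested) and astrocytes (4 of 4) were present on every array. Their summed signals, in units of each array's 75th percentile, were 338.4 to 391.6 in anti-CD4 and 326.1 to 365.4 in control arrays for neurons, and 49.3 to 55.5 in anti-CD4 and 48.6 to 53.5 in control arrays for astrocytes.

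Each value below is the signal of a 60-base probe. Probes are printed here for the 8 genes with an unadjusted p under 0.05 in limma or with groups that did not overlap. They stand 5′ to 3′ as on the array, because the signal of a gene is the binding to these 60 bases. The coordinates are those of the array files on mm9, and exon and UTR annotation on that build was not used here. The probes lie at chr1:24265650-24265709 (Col19a1, minus strand), chr17:34203113-34203172 (Col11a2, plus), chr3:129885684-129885743 (Col25a1, plus), chr2:180752070-180752129 (Col20a1, plus), chr10:76058931-76058990 (Col6a2, minus), chr4:120727698-120727757 (Col9a2, plus), chr9:108392189-108392248 (Lamb2, plus) and chr1:155066156-155066215 (Lamc1, minus).
Col19a1: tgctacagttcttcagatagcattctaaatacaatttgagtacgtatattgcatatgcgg
Col11a2: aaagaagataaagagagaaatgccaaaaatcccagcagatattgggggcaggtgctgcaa
Col25a1: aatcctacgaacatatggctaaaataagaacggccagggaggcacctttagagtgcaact
Col20a1: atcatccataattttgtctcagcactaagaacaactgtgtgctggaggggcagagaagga
Col6a2: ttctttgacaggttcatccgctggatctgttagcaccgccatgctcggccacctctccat
Col9a2: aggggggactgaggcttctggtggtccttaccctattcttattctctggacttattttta
Lamb2: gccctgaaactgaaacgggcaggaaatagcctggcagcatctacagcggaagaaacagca
Lamc1: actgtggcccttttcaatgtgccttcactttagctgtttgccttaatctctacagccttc

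The matrix genes lay on both sides of 0 in the anti-CD4 hippocampus. Of the 45 tested genes, 21 lay above 0 and 24 below, with a median difference of -0.01, while 51.8% of all rows lay above 0 and 48.2% below, with a median of 0.01. None passed an adjusted p of 0.05 in limma, and of all rows 0.0% did. At an unadjusted p under 0.05 there were 7 genes, 3 higher (Lamb2, Col6a2 and Col9a2) and 4 lower (Col19a1, Col11a2, Col25a1 and Col20a1) in the anti-CD4 group, while 13.0% of all rows reached it, 6.17% higher and 6.83% lower. The groups did not overlap for 4 genes, with Lamb2 higher and Col19a1, Col11a2 and Lamc1 lower, against 8.18% of all rows, 3.82% higher and 4.36% lower. As shares of 45 genes, both counts are near the background of the array.

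With the arrays scaled to their median in place of the 75th percentile, 7 genes again reached an unadjusted p under 0.05, 5 higher and 2 lower, where all rows had 2066 higher and 958 lower, against 1456 higher and 1612 lower in the scaling used here. The count also rests on single arrays. It was 3 genes without anti-CD4 replicate 4 and 4 without control replicate 3, and 9 without control replicate 1.

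**Figure D1:**
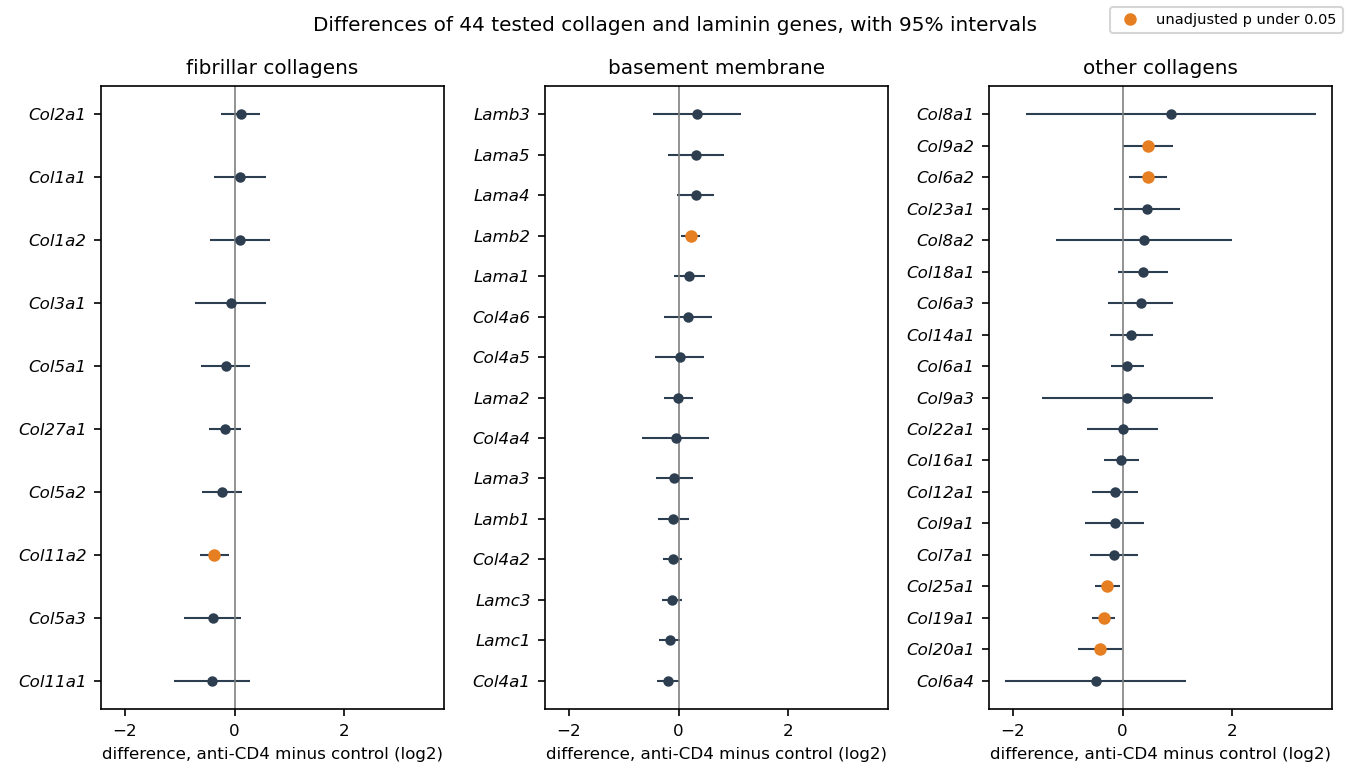
Difference of 44 of the 45 tested genes, anti-CD4 minus control in log2 units (horizontal axis), with 95% confidence intervals from limma, in 3 classes ordered by size. Orange points mark the 7 genes with an unadjusted p under 0.05. The widest intervals are those of Col8a1, Col6a4, Col8a2 and Col9a3.

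The fibrillar collagens lay mostly below 0. Of 10 tested of 11, 7 had a lower mean in the anti-CD4 group and 3 a higher one, with a median difference of -0.17. The main chains of collagen fibrils, Col1a1, Col1a2 and Col3a1, had differences of 0.10, 0.09 and -0.07, and the lower values belonged to the minor chains of types V, XI and XXVII, which regulate fibril assembly or form thin fibrils. Col11a2 was the 1 fibrillar gene whose groups did not overlap, against 8.18% of all rows.

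Col11a2 encodes a chain of the type XI collagen that sits in the core of cartilage fibrils. Its relative signal was -1.71, -1.58, -1.67 and -1.66 in anti-CD4 replicates 1 to 4, against -1.05, -1.10, -1.44 and -1.54 in control replicates 1 to 4. Every anti-CD4 array lay below every control array, and the anti-CD4 arrays were the tighter group, with SDs of 0.05 against 0.24 in control. The difference was -0.37 ± 0.12 (SE), with an adjusted p of 0.269 in limma. Col11a1, another chain of the same trimer, had a difference of -0.41 ± 0.30 (adjusted p = 0.583 in limma). Its probe was above background on 3 anti-CD4 and 4 control arrays, and its values ran between -4.08 and -2.81 in anti-CD4 and between -3.26 and -2.32 in control arrays, so the groups overlapped. Without anti-CD4 replicate 4 the difference was -0.15, without control replicate 2 it was -0.23, and it was -0.22 after normexp background correction and -0.20 in the authors' deposited table.

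Type V collagen starts type I fibrils and limits their width. Col5a3, its least widespread chain, measured -1.66, -2.16, -1.84 and -2.77 in anti-CD4 arrays, against -1.46, -1.70, -1.73 and -1.94 in control arrays, a difference of -0.40 ± 0.23 (adjusted p = 0.486 in limma). Much of that lay in 1 array, since without anti-CD4 replicate 4 the difference was -0.18, as it was in the authors' deposited table, and after normexp it was -0.21. Col5a2 differed by -0.24 ± 0.16 (adjusted p = 0.549 in limma), with -3.32 to -2.71 in anti-CD4 and -3.03 to -2.55 in control arrays, and by -0.15 without anti-CD4 replicate 4 or control replicate 2 and -0.12 in the authors' deposited table. Col27a1, a fibrillar collagen of cartilage, differed by -0.18 ± 0.13 (adjusted p = 0.570 in limma). One of its anti-CD4 arrays stood apart at -3.74, while the others lay at -3.28 to -3.27, and without it the difference was -0.06.

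Col1a1 and Col1a2 encode the chains of type I collagen, the bulk of most fibrils. Col1a1 was 0.34, 0.05, -0.26 and 0.07 in anti-CD4 replicates 1 to 4, against 0.38, 0.15, -0.57 and -0.17 in control replicates 1 to 4. Col1a2 was 1.94, 1.80, 1.56 and 2.07 in anti-CD4 replicates, against 2.17, 2.18, 1.12 and 1.52 in control replicates. Both genes put control replicate 3 lowest of the 8 arrays. Their differences were 0.10 ± 0.21 for Col1a1 and 0.09 ± 0.24 for Col1a2 (adjusted p = 0.854 and 0.891 in limma), and without control replicate 3 they were -0.07 and -0.11.

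Col3a1, the chain of type III collagen, was also lowest in control replicate 3, at -2.35. The other 3 control arrays held -1.63 to -0.87, and the anti-CD4 arrays -1.87 to -1.31. Its difference was -0.07 ± 0.29 (adjusted p = 0.932 in limma), and without control replicate 3 it was -0.34. The interval of the Col1a1 difference reached -0.37 to 0.58 and that of Col3a1 -0.72 to 0.58, so a moderate change of the main fibril genes in either direction is within the error. The remaining fibrillar genes, Col2a1 of cartilage and Col5a1, differed by 0.11 and -0.16.

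Markers of meningeal fibroblasts, the cells that make these chains, were tested for 25 of 26 genes. Their summed signal was 74.8 to 86.1 in anti-CD4 arrays and 57.7 to 87.3 in control arrays, in units of the 75th percentile, and control replicate 3 held the lowest sum, as it held the lowest type I and type III signals. On this list Slc13a4, Igfbp2 and Igf2 were lowest in anti-CD4 replicate 1 and control replicates 2 and 3. These are the arrays low in Ttr, a choroid plexus gene described below, so the sum and the mean of the list partly carry that split. Of the 25, 22 lay above 0, with a median difference of 0.20 and 1 at an unadjusted p under 0.05. The fibril-binding proteoglycans Dcn and Lum, first on the list, were among the 3 below 0, at -0.02 and -0.09. Another proteoglycan of fibrils, Fmod, was the gene at an unadjusted p under 0.05, with a difference of 0.51 ± 0.20 (adjusted p = 0.343 in limma), and was chosen with its value in view. Markers of vascular smooth muscle, 5 of 5 tested, summed to 9.45 to 11.4 in anti-CD4 and 9.61 to 14.5 in control arrays. With the mean of the fibroblast markers as a covariate, Col1a1 came to -0.12 and Col1a2 to -0.19, below 0 where they had been above it, and Col3a1 came to -0.36. With the endothelial and pericyte markers, described with the basement membrane, the 3 were -0.17, -0.32 and -0.64. The part of these cells in the collagen values was otherwise not tested.

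**Figure D2:**
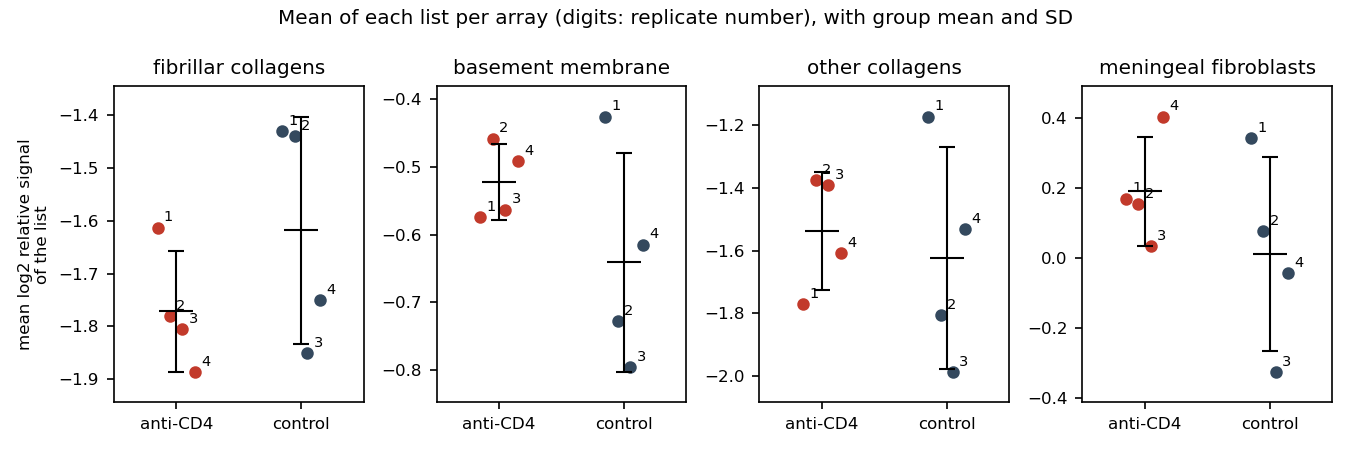
Mean relative signal (log2) of the tested fibrillar collagens, basement membrane genes, other collagens and meningeal fibroblast markers in each array, with the group mean and SD (n = 4 per group). Digits give the replicate number. Control replicate 3 has the lowest mean of the meningeal list and of the basement membrane and other collagen classes, and the groups overlap for the 3 gene classes and the marker list.

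The basement membrane genes, type IV collagens and laminins, were 16 tested of 17. As many lay above 0 as below, 8 and 8, and the median difference was 0.005. Among the laminins, 6 of 11 lay above 0 with a median difference of 0.19, and among the type IV chains 2 of 5 tested did, with a median of -0.05. One gene of the class, Lamb2, reached an unadjusted p under 0.05, and Lamb2 and Lamc1 had groups that did not overlap, in opposite directions. Of all rows, 13.0% reached that p and 8.18% had groups that did not overlap.

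Lamb2 encodes the beta2 chain, a part of the laminins of vessel walls and of the neuromuscular synapse. Its relative signal was 0.474, 0.537, 0.549 and 0.575 in anti-CD4 replicates 1 to 4, against 0.377, 0.250, 0.164 and 0.469 in control replicates 1 to 4. The lowest anti-CD4 array lay barely above the highest control array, so the separation is narrow. The difference was 0.22 ± 0.08, a 1.16-fold higher signal, with an adjusted p of 0.311 in limma. The unadjusted p of 0.022 from limma was above the threshold in 6 of 21 other settings, namely with the replicate number as a block, with the meningeal or the endothelial covariate, and in the limma fits without anti-CD4 replicate 4 (difference 0.20), without control replicate 2 (0.20) and without control replicate 3 (0.17).

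Lamc1 encodes the gamma1 chain that most laminin trimers share. It measured 1.37, 1.503, 1.52 and 1.51 in anti-CD4 arrays, against 1.83, 1.52, 1.57 and 1.64 in control arrays. All 4 anti-CD4 values were below all control values, by a narrow gap between 1.518 and 1.523. The difference was -0.17 ± 0.08, with an unadjusted p of 0.077 and an adjusted p of 0.434 in limma. It was -0.09 after normexp background correction, -0.08 in the authors' deposited table and -0.10 without control replicate 1. The partner chain Lamb1, chosen with its value in view, differed by -0.10 ± 0.12 (adjusted p = 0.764 in limma).

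Lama3 and Lamb3 encode chains of the laminin of epithelial basement membranes and were chosen with their values in view. Lamb3 was well above background on 4 anti-CD4 and 3 control arrays, so its value on the remaining control array is a bound. Lamb3 ran between -3.11 and -1.84 in anti-CD4 arrays and between -3.77 and -2.29 in control arrays. Lama3 ran between -2.32 and -1.92 in anti-CD4 and between -2.39 and -1.79 in control arrays. Both groups overlapped, with differences of 0.33 ± 0.35 for Lamb3 and -0.08 ± 0.15 for Lama3 (adjusted p = 0.711 and 0.846 in limma).

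Lama4 and Lama5 encode the alpha chains of endothelial laminins. Lama4 was -1.40, -1.20, -1.80 and -1.17 in anti-CD4 arrays, against -1.49, -1.71, -1.90 and -1.71 in control arrays, a difference of 0.31 ± 0.15 (adjusted p = 0.419 in limma). All anti-CD4 arrays but replicate 3 were above every control array. The difference was 0.21 after normexp, 0.16 in the authors' deposited table and 0.17 with the meningeal covariate. Lama5, chosen with its value in view, differed by 0.32 ± 0.22 (adjusted p = 0.564 in limma). It was 0.24, 0.52, 0.81 and 0.52 in anti-CD4 replicates 1 to 4, against 0.68, -0.19, -0.20 and 0.52 in control replicates 1 to 4. The lowest arrays were control replicates 2 and 3 and anti-CD4 replicate 1, and the highest was anti-CD4 replicate 3.

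Lama2 encodes the alpha chain made by astrocytes and muscle, which carries the laminin on the brain side of the vessel wall. Its brightest probe was 0.69, 0.41, 0.59 and 0.56 in anti-CD4 arrays and 0.73, 0.76, 0.31 and 0.47 in control arrays, a difference of -0.01 ± 0.11 (adjusted p = 0.984 in limma). A further probe of Lama2 gave another value and is described with the genes that had several probes. The remaining laminins, Lama1 and Lamc3, lay between -0.12 and 0.19.

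The type IV network was represented by its ubiquitous chains Col4a1 and Col4a2, which form 1 trimer. Col4a1 was 0.18, 0.12, 0.15 and -0.02 in anti-CD4 replicates 1 to 4, against 0.47, 0.37, 0.23 and 0.14 in control replicates 1 to 4, a difference of -0.19 ± 0.09 (adjusted p = 0.400 in limma). This probe was printed 10 times on every array and the SD of the copies was 3.29% to 5.40% of their mean. Col4a2 was 0.90, 0.82, 0.74 and 0.61 in anti-CD4 and 0.91, 0.81, 0.92 and 0.85 in control replicates, a difference of -0.10 ± 0.08 (adjusted p = 0.578 in limma). Both lay below 0, the groups of both overlapped, and Col4a2 came to -0.05 without anti-CD4 replicate 4. The other type IV chains tested, Col4a4, Col4a5 and Col4a6, lay between -0.05 and 0.18.

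Col4a1 and Col4a2 lie on opposite strands, and their start sites lie 21 bases apart, at chr8:11312826 (Col4a1, minus) and chr8:11312805 (Col4a2, plus). By these positions the first bases of the genes overlap, so no gap lies between the starts. Their promoter windows, 250 bases before to 50 after the start, are shown for that overlap, from RefSeq on GRCm38.p6, at chr8:11312777-11313076 on the minus strand for Col4a1 and chr8:11312555-11312854 on the plus strand for Col4a2. Capitals mark the 78 bases that both windows share, read from opposite strands. They hold the 50 bases after the start of each gene.
Col4a1: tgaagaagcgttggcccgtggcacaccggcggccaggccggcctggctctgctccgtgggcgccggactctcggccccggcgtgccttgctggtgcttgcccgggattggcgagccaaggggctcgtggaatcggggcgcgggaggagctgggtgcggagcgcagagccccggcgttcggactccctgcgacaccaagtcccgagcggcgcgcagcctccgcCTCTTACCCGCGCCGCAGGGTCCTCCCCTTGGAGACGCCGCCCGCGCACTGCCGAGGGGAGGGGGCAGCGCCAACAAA
Col4a2: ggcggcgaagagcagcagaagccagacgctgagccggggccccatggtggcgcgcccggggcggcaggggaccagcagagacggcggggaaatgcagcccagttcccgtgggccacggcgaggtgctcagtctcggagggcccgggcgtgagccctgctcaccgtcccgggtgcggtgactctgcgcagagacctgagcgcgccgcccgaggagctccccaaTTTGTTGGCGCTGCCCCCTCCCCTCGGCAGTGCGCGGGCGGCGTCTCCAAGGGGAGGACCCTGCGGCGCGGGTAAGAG
Searched on both strands, the CCAAT box (CCAAT) occurs 1 time in each window and the GC box (GGGCGG) 1 time in that of Col4a1 and 3 times in that of Col4a2, and neither holds a TATA box (TATAAA). The search covered 44 promoters of 40 collagen and laminin genes, set against 32851 mouse promoters of the same length. CCAAT was in 31.8% of the matrix promoters and 37.4% of all, GGGCGG in 59.1% and 35.7%, and TATAAA in 11.4% and 13.6%. These are matches of letters, not sites. Another pair on opposite strands, Col4a6 and Col4a5, has start sites 1343 bases apart with a gap between them, and differences of 0.18 and 0.02.

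Collagen and laminin genes often lie side by side, and 9 such neighbouring pairs were found, with both genes tested in 6. In 5 of the 6 the neighbours lay on the same side of 0. These were Col9a1 and Col19a1 (-0.15 and -0.35), Col3a1 and Col5a2 (-0.07 and -0.24), Col6a2 and Col6a1 (0.46 and 0.09), Col4a1 and Col4a2, and Col4a6 and Col4a5. The standard errors of Col9a1, Col3a1, Col6a1, Col4a6 and Col4a5 were larger than their differences. The share for neighbouring pairs of all genes was not computed, so the count is not read as a trait of these genes.

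Markers of endothelium and pericytes, the cells beside the vascular basement membrane, were all tested, 19 of 19. Their summed signal was 66.8 to 76.8 in anti-CD4 and 60.3 to 72.3 in control arrays, and control replicate 3 was again the lowest. Of the 19, 13 lay above 0, with a median difference of 0.08, and 7 were higher at an unadjusted p under 0.05, against 6.17% of all rows. For 5 of the 19 the groups did not overlap, with anti-CD4 higher, against 3.82% of all rows. The tight junction gene Cldn5 differed by 0.08 and the adhesion gene Pecam1 by 0.26. With the mean of these markers as a covariate, the Lamb2 difference was 0.16, with an unadjusted p of 0.134 in limma. Haemoglobin and other red cell genes had sums that did not overlap between the groups, since the 6 tested of 8 listed came to 116 to 136 in anti-CD4 and 74.9 to 111 in control arrays. All 6 were higher at an unadjusted p under 0.05, and 5 had groups that did not overlap. Whether blood or vessel content has a part in the laminin values was not tested further.

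The other collagens, 19 tested of 26, were the largest class. At an unadjusted p under 0.05 in limma, 2 were higher and 3 lower, where 6.17% of all rows were higher and 6.83% lower. Of the 19, 10 lay above 0 and 9 below, with a median difference of 0.09. Those that decorate fibrils without forming them, called FACIT collagens, had 3 of 9 above 0, and the beaded filament collagens of type VI had 3 of 4.

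Col19a1 had the smallest unadjusted p of the 45, 0.004. It encodes a FACIT collagen that in mouse hippocampus is made by a subset of interneurons and is needed for inhibitory nerve terminals to form. The signal was -3.70, -3.82, -3.84 and -3.88 in anti-CD4 replicates 1 to 4, against -3.48, -3.25, -3.50 and -3.61 in control replicates 1 to 4. The groups did not overlap, and the difference was -0.35 ± 0.09, a signal 0.785 times that of control, with an adjusted p of 0.245 in limma. All 8 arrays read the probe well above background, but it was dim: the lowest signals read as above background were -4.55 to -4.11 in anti-CD4 and -4.70 to -4.06 in control arrays. The difference depended on how background was treated. It was 0.0015 after normexp background correction, which adds an offset of 50 to every signal. In the authors' deposited table, whose ranks match the signal before background subtraction, it was -0.05. With a trended, robust variance the unadjusted p was 0.054 in limma.

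Col25a1 encodes a membrane-spanning collagen of neurons, whose shed part binds amyloid in plaques. The brightest probe was -0.78, -0.76, -0.88 and -1.05 in anti-CD4 replicates, against -0.77, -0.43, -0.56 and -0.59 in control replicates. All control arrays but replicate 1 were above every anti-CD4 array. The difference was -0.28 ± 0.10 (adjusted p = 0.298 in limma), and the unadjusted p of 0.019 rose above 0.05 in 6 of 21 other settings. It was 0.054 without anti-CD4 replicate 4 and 0.050 without control replicate 2, and the difference was -0.22 in both fits. Its 2 other probes did not lie below 0.

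Col20a1, a FACIT collagen, was -1.51, -2.09, -1.77 and -2.02 in anti-CD4 replicates, against -1.10, -1.37, -1.43 and -1.84 in control replicates. The groups overlapped through control replicate 4. The difference was -0.42 ± 0.18 (adjusted p = 0.373 in limma), and its second probe gave -0.31 ± 0.14. The unadjusted p of 0.045 held in 8 of 21 other settings only, and was lost without any 1 of anti-CD4 replicates 2, 3 and 4 or control replicates 1, 2 and 3, with differences of -0.33, -0.44, -0.36, -0.30, -0.39 and -0.41 in that order.

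Col6a2 was higher in the anti-CD4 group at an unadjusted p of 0.015. It encodes a chain of type VI collagen, whose beaded filaments link basement membranes to fibrils. The signal was -1.29, -1.12, -1.64 and -1.18 in anti-CD4 replicates 1 to 4, against -1.44, -2.03, -1.82 and -1.78 in control replicates 1 to 4. All anti-CD4 arrays but replicate 3 lay above every control array, and the difference was 0.46 ± 0.15, a 1.37-fold higher signal (adjusted p = 0.281 in limma). Its unadjusted p stayed under 0.05 in 21 of 21 other settings, as did that of Col11a2. The other type VI chains, chosen with their values in view, gave 0.09 ± 0.13 for Col6a1 and 0.33 ± 0.26 for Col6a3 (adjusted p = 0.801 and 0.611 in limma). Col6a4 was well above background on 2 anti-CD4 and 3 control arrays, and its values on the others are bounds, so its fitted -0.49 ± 0.72 is not a measured size.

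Col9a2, a chain of the type IX collagen that coats cartilage fibrils, was -0.18, -0.08, -0.48 and 0.17 in anti-CD4 replicates, against -0.11, -1.02, -0.65 and -0.62 in control replicates. Control replicate 1 lay among the anti-CD4 arrays. The difference was 0.46 ± 0.20 (adjusted p = 0.382 in limma), and the unadjusted p of 0.048 held in 11 of 21 other settings. It was above 0.05 when any 1 of anti-CD4 replicates 1, 2 and 4 or control replicates 2, 3 and 4 was left out, with differences of 0.47, 0.44, 0.35, 0.32, 0.44 and 0.45 in that order. Its trimer partners, Col9a1 and Col9a3, chosen with their values in view, had differences of -0.15 ± 0.24 and 0.09 ± 0.68. Col9a1 was well above background on 3 anti-CD4 and 3 control arrays, and its values on the others are bounds.

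**Figure D3:**
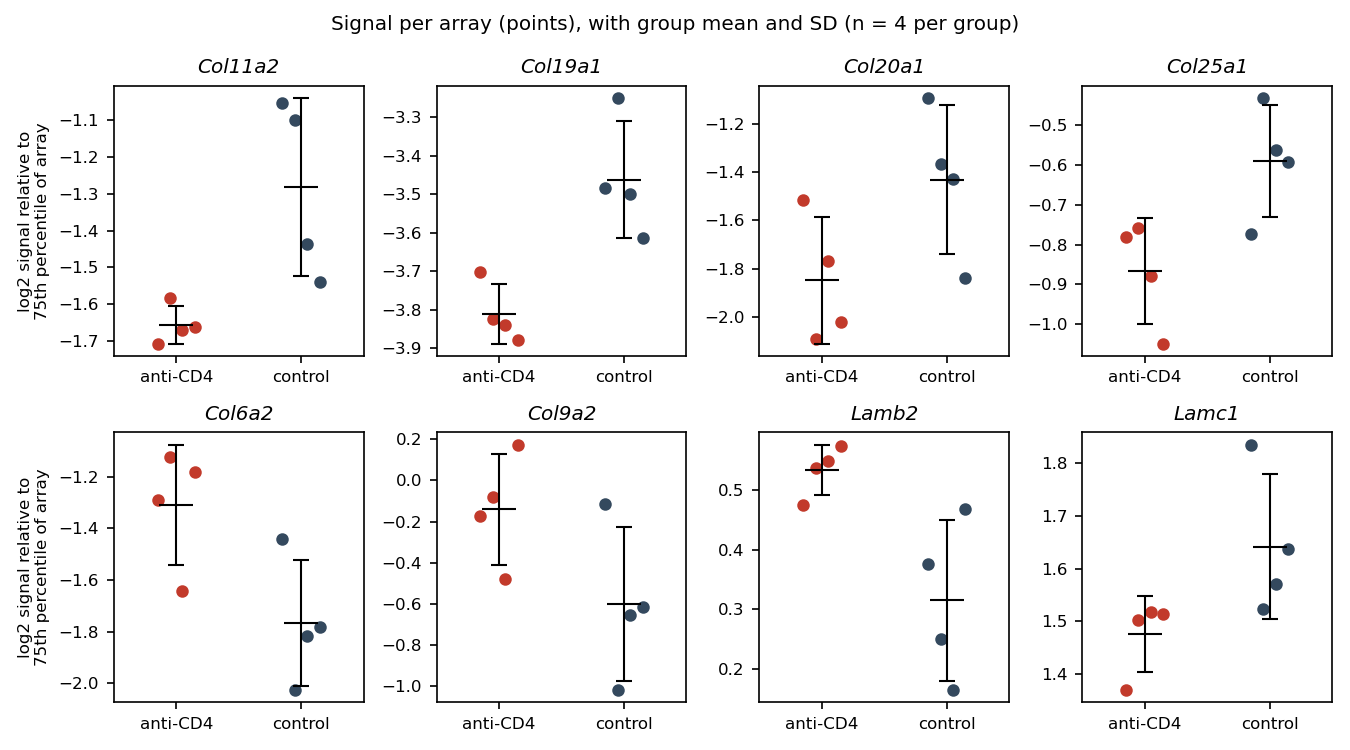
Relative signal (log2, vertical axis) of the 7 genes at an unadjusted p under 0.05 and of Lamc1 in each array, with the group mean and SD (n = 4 per group). The groups do not overlap for Col11a2, Col19a1, Lamb2 and Lamc1, and the gap of the last 2 is narrow.

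Among the rest of this class, Col18a1, a vascular basement membrane collagen that releases endostatin, differed by 0.37 ± 0.20, and Col23a1, a membrane-spanning collagen, by 0.45 ± 0.27 (adjusted p = 0.461 and 0.502 in limma). Both were chosen with their values in view. Second probes of these genes gave 0.28 for Col18a1 and 0.51 for Col23a1. Col12a1, Col14a1, Col16a1, Col22a1 and Col7a1 lay between -0.16 and 0.16.

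The matrix genes varied more between arrays than most genes did. The median SD over the 8 arrays was 0.303 for the 45 genes and 0.155 for all rows. The genes were also dimmer, with means per array of -1.53 to -0.96 against 0.21 to 0.26 for all rows. The SDs were not compared at matched signal. An SD above 1 was found in 5 of them, 11.1%, and in 0.674% of all rows. Those described here are Col8a1 (1.87), Col6a4 (1.16, with bounds on 3 arrays), Col8a2 (1.11) and Col9a3 (1.06), and they were chosen for their spread.

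Col8a1 and Col8a2 encode the chains of type VIII collagen, a short-chain network found under endothelium and in the eye. Their probes and that of Col9a3 are printed because these signals divided the arrays in a way that the treatment does not. They lie on mm9 at chr16:57624471-57624530 (Col8a1, minus), chr4:125991441-125991500 (Col8a2, plus) and chr2:180356123-180356182 (Col9a3, plus).
Col8a1: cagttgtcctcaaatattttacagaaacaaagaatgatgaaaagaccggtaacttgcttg
Col8a2: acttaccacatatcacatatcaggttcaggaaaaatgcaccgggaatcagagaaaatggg
Col9a3: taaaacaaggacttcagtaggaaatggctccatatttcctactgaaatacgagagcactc
Col8a1 was -5.54, -2.86, -1.60 and -2.62 in anti-CD4 replicates 1 to 4, against -2.02, -6.06, -5.81 and -2.29 in control replicates 1 to 4. It was not well above background in anti-CD4 replicate 1 and control replicates 2 and 3, so its low values are bounds. Col8a2 was -1.82, -0.42, 0.74 and -0.37 in anti-CD4 replicates, against 0.43, -1.98, -1.97 and 0.12 in control replicates. Col9a3 was -3.95, -2.36, -1.24 and -2.22 in anti-CD4 replicates, against -1.38, -3.35, -3.71 and -1.67 in control replicates. The same 3 arrays were low for all 3 genes, and anti-CD4 replicate 3 was the highest for all 3. Lama5 and Col18a1, described above, also had these 3 arrays lowest and anti-CD4 replicate 3 highest.

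The same 3 arrays were low in Ttr, the thyroid hormone carrier made by the epithelium of the choroid plexus. Ttr was 1.22, 7.60, 8.48 and 7.75 in anti-CD4 replicates 1 to 4, against 8.16, 2.72, -0.46 and 8.26 in control replicates 1 to 4. The choroid plexus list, 15 of 15 tested, summed to 39.7 to 638 in anti-CD4 and 31.7 to 512 in control arrays. Of the 15, 14 lay above 0 with a median difference of 1.01, Ttr at 1.59 ± 2.29 and the next gene, Kl, at 0.24 ± 0.93, and 0 reached an unadjusted p under 0.05. Among the 5 arrays high in Ttr, the 3 collagens kept its order except that control replicates 1 and 4 changed places.

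Between the treatments these genes did not differ beyond their spread. Col8a1 differed by 0.89 ± 1.16, Col8a2 by 0.38 ± 0.70 and Col9a3 by 0.09 ± 0.68, with adjusted p-values of 0.771, 0.840 and 0.970 in limma. With Ttr as a covariate the standard errors were smaller, and the differences were 0.12 ± 0.40, -0.07 ± 0.28 and -0.37 ± 0.22. Markers of the ependyma, the lining beside the choroid plexus, were tested for 7 of 7 genes and summed to 14.2 to 23.7 in anti-CD4 and 12.9 to 19.3 in control arrays. How much choroid plexus each sample held was not measured apart from these genes.

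**Figure D4:**
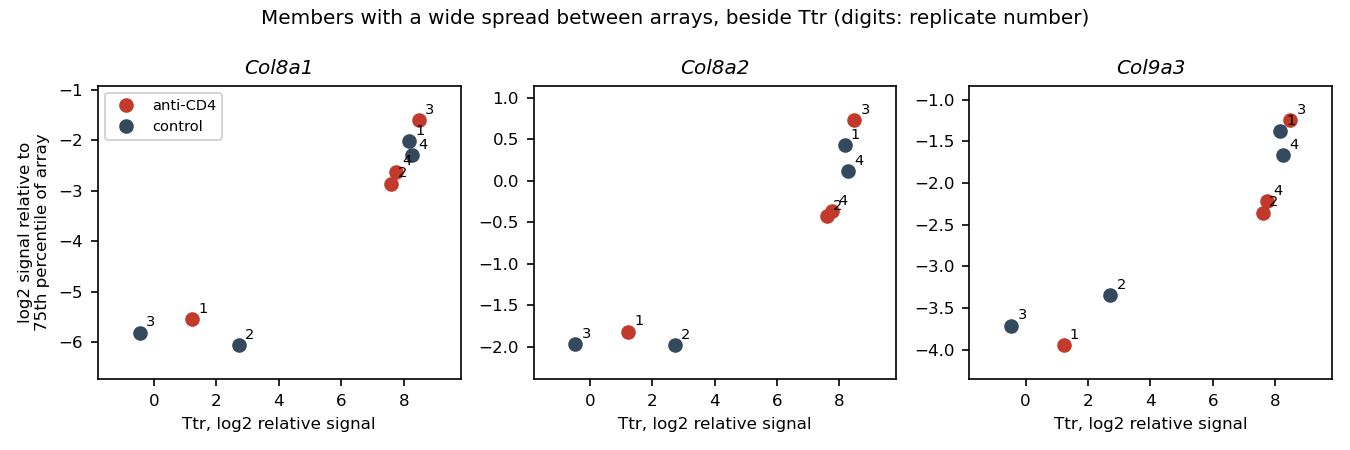
Relative signal (log2) of Col8a1, Col8a2 and Col9a3 against that of Ttr in each array (anti-CD4 and control arrays in 2 colours, digits give the replicate number). Anti-CD4 replicate 1 and control replicates 2 and 3 are low in Ttr and in Col8a1, Col8a2 and Col9a3.

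Several probes above background were available for 8 of the tested genes, and in 4 of them the probes lay on both sides of 0. Col25a1 and Lama2 are shown, because for these the choice of probe sets what the gene appears to do. The array annotation assigns the brightest Col25a1 probe to another transcript than its other tested probes. Whether the transcripts differ between the groups was not tested. The probe of Col25a1 used above is printed among the first sequences, and its other probes lie 413.54 and 415.95 kb downstream, at chr3:130299222-130299281 and chr3:130301638-130301697 on the plus strand. The dimmer of the Lama2 probes lies at chr10:26701254-26701313 on the minus strand.
Col25a1, 413.54 kb away: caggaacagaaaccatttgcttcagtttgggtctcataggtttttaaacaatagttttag
Col25a1, 415.95 kb away: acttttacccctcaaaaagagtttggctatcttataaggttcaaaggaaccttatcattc
Lama2, dimmer: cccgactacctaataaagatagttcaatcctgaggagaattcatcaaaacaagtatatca
The downstream probes of Col25a1 differed by 0.16 ± 0.17 and 0.13 ± 0.15, against -0.28 ± 0.10 for the brightest, and the mean of the 3 probes differed by 0.003. The dimmer Lama2 probe was -0.43, -0.65, -0.41 and -0.50 in anti-CD4 replicates, against -0.13, -0.06, -0.35 and -0.43 in control replicates, a difference of -0.26 ± 0.10 (unadjusted p = 0.033, adjusted p = 0.346 in limma). The brighter probe differed by -0.01, and the mean of both by -0.13. Probes of Col16a1 gave -0.02 and 0.17, of Col4a6 0.18 and -0.04, and of Lama3 -0.08 and 0.09.

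**Figure D5:**
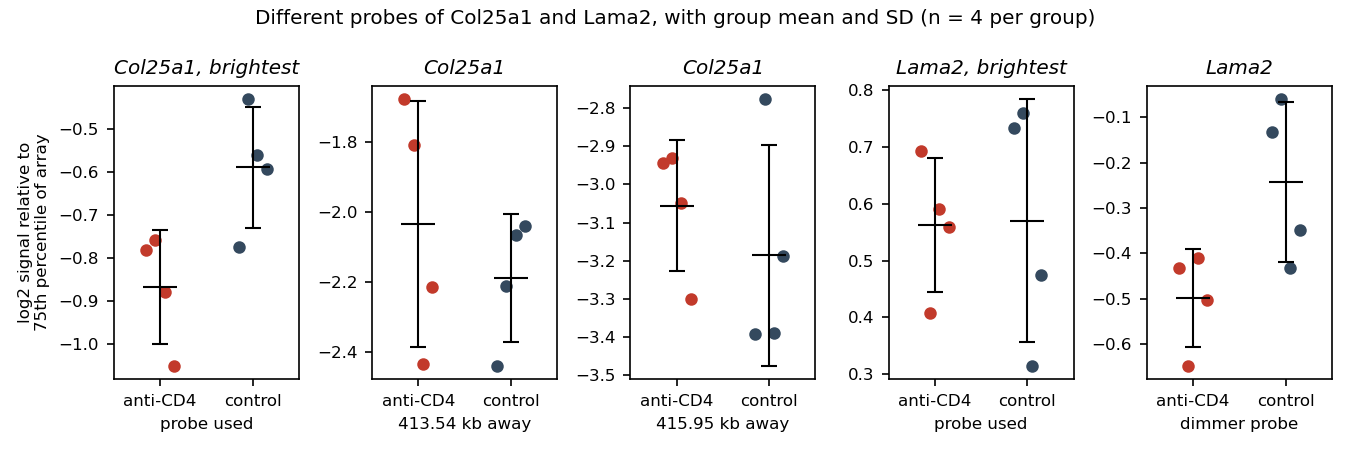
Relative signal (log2) of the 3 probes of Col25a1 and the 2 probes of Lama2 in each array, with the group mean and SD (n = 4 per group). The brightest Col25a1 probe has the anti-CD4 mean below the control mean and the 2 probes downstream have it above, and the dimmer Lama2 probe has a larger gap than the brighter one.

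The machinery around the collagens and laminins was read from 6 lists, and no gene of them passed the adjusted threshold in limma. Enzymes that modify and fold collagen chains, 18 tested of 19, had 9 above 0 and a median of 0.01, with 1 higher and 1 lower at an unadjusted p under 0.05. Fkbp10, a folding chaperone of the endoplasmic reticulum, was 1.17, 1.20, 1.65 and 1.48 in anti-CD4 and 1.04, 1.16, 0.86 and 1.09 in control replicates, without overlap, a difference of 0.34 ± 0.12 (adjusted p = 0.309). Plod2, which hydroxylates lysines used in crosslinks, differed by -0.27, and P4ha3, a prolyl hydroxylase subunit, by 0.22. Cleavage and crosslinking genes, 10 tested of 13, had 5 above 0, a median of -0.001 and 1 lower at an unadjusted p under 0.05. That gene was Bmp1, which trims the ends of fibrillar procollagens, at -0.32 ± 0.14 (adjusted p = 0.376), while the procollagen peptidases Adamts14 and Adamts2 differed by -0.24 and 0.32.

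Fibril partners, 15 tested of 16, had 9 above 0 and a median of 0.14, with 2 higher and 2 lower at an unadjusted p under 0.05. Fn1 encodes fibronectin, a scaffold on which fibrils are laid. It was 3.37, 3.09, 3.13 and 3.30 in anti-CD4 replicates, against 2.87, 2.85, 2.93 and 2.91 in control replicates. The groups did not overlap, and the difference was 0.33 ± 0.08 (adjusted p = 0.226 in limma). The microfibril genes Fbn1 and Mfap2, which encode fibrillin-1 and a protein bound to it, lay the other way without overlap. Fbn1 was -2.23, -2.08, -1.89 and -2.14 in anti-CD4 and -1.57, -1.78, -1.86 and -1.81 in control replicates, a difference of -0.33 ± 0.10 (adjusted p = 0.255 in limma). Mfap2 differed by -0.24 ± 0.07 (adjusted p = 0.250 in limma).

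Basement membrane partners, 15 tested of 16, had 10 above 0 and a median of 0.15, with 3 higher and 1 lower at an unadjusted p under 0.05. Smoc1, a calcium-binding basement membrane protein, was 0.42, 0.63, -0.23 and 0.54 in anti-CD4 replicates, against -0.16, -0.44, -0.29 and -0.36 in control replicates, with anti-CD4 replicate 3 among the control values. Its difference was 0.65 ± 0.18 (adjusted p = 0.247 in limma). Npnt, an integrin ligand of basement membranes, differed by -0.49 ± 0.16, and Egfl7, secreted by endothelium, by 0.21 ± 0.09 (adjusted p = 0.272 and 0.368 in limma).

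Receptors for collagen and laminin, 17 tested of 18, had 10 above 0, a median of 0.03 and no gene at an unadjusted p under 0.05. Those with the smallest p were Mrc2, which takes up cleaved collagen, at 0.35, Adgrg1, a receptor for type III collagen, at -0.21, and Itga10, a collagen-binding integrin chain, at -0.21. Degradation genes, 12 tested of 16, had 8 above 0 and a median of 0.13. Timp2, an inhibitor of matrix metalloproteinases, was higher at an unadjusted p under 0.05, with a difference of 0.46 ± 0.16 (adjusted p = 0.293 in limma). Its relative Timp3 differed by 0.23 ± 0.10 and the type IV collagenase Mmp2 by 0.44 ± 0.24. Mmp2 was lowest in anti-CD4 replicate 1 and control replicates 2 and 3, the arrays low in Ttr. So were Nid2, Tinagl1 and Pcolce2, among others, in the lists above. How far the list medians carry that split was not tested. The lists had 51.8% of all rows above 0 as their background, and 6.17% higher and 6.83% lower at that p. Groups did not overlap for 2 folding genes, Fkbp10 and Colgalt2, both higher, and for 1 fibril partner higher and 2 lower. In the other lists no gene had groups without overlap. Of all rows, 3.82% were higher and 4.36% lower without overlap.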

How the data were processed

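The scanner files were deposited as intensity values per spot, background-subtracted and detrended within each array by Feature Extraction 10.7.3.1, with array coordinates on mm9, per the file headers. The authors also deposited a table of log2 values, used as an alternative. Its scale was found by comparison. Ranks within a column matched those of the same array's median signal before background subtraction (correlation 0.99999 at the lowest). Sorted columns lay within 0.121 of each other. limma is named in the submitters' processing notes; further steps: not given in the sources used here.

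Control spots and outlier-flagged spots were left out, spots of a probe averaged, and each array's 75th percentile subtracted from log2 processed signal. Probes well above background on at least 4 of 8 arrays were kept, 1 probe a gene, the brightest. Groups, taken from sample titles, were compared with lmFit and eBayes (limma 3.58.1, R 4.3.3), two-sided, Benjamini-Hochberg over 23608 rows. In 10 simulated sets of 4 against 4 arrays, 78.8% of changes of 1 (log2) and 40.0% of changes of 0.5 were recovered, and 0.0299% of the remaining genes were called. The changed rows were drawn from all 23608 rows, whose median SD over arrays was 0.155, against 0.303 for the collagen and laminin genes. The rates therefore do not give the recovery for these genes, which was not simulated. The number of arrays limits the precision.

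The members, the gene lists and the rules were chosen with earlier results of these data known. The rule named, in each of 3 classes, every gene with an unadjusted p under 0.05 or with groups that did not overlap, filled up to 5 by the smallest p, always Col1a1, Col1a2, Col3a1, Col4a1, Col4a2, Lama2, Lamb2 and Lamc1, up to 3 genes of each pathway list, and up to 2 of each marker list. Lists were given by counts and medians without a test. Promoter windows came from RefSeq. A gene and a probe sequence that these rules take are not reported here. Alternatives changed the scaling, the background correction, the dim-probe filter, which probe stands for a gene, a replicate block, empirical Bayes options, array weights, covariates, the authors' table and each array left out. The background correction was normexp with an offset of 50.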

Additional observations from a re-analysis of the deposited data

Results flagged for a closer look

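In groups of 4 arrays, a value was picked out where its gap to the nearest other array exceeded the 95% critical value of Dixon's test as a share of the group's range. The 90 groups of the 45 tested genes and 8 groups of list means were examined. Of these 98, 6 met it, 6.12%, and chance alone gives about 1 in 20. In the anti-CD4 group, Col27a1 read -3.741 in replicate 1, while the others read -3.277 to -3.266, and Lamc1 read 1.37 in the same array, while the others read 1.503 to 1.518. Col22a1 read -1.19 in anti-CD4 replicate 3, while the others read -0.3302 to -0.3103. In the control group, Col18a1 read -1.608 in replicate 3, while the others read -0.8646 to -0.7867. Col6a4 read -5.334 in the same control array, where its probe was not well above background, while the others read -3.743 to -3.434. Col7a1 read -0.9047 in control replicate 4, while the others read -0.4375 to -0.3455.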

How the results depend on the processing

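Under 21 alternatives to the processing, 0 collagen or laminin genes passed the adjusted threshold in limma, and at an unadjusted p under 0.05 there were 3 to 9. The median difference ranged over -0.29 to -0.08 for the fibrillar collagens, -0.08 to 0.09 for the basement membrane genes and -0.08 to 0.18 for the other collagens. The count of genes higher at an unadjusted p under 0.05, 3 as reported, was 5 with array median scaling, 5 with the authors' deposited table, 6 with array weights and 1 with the meningeal fibroblast covariate, and the count lower, 4 as reported, was 2 with array median scaling. With 1 array left out, the counts were 1 to 6 higher (6 without control replicate 1, 5 without anti-CD4 replicate 3, 1 without anti-CD4 replicate 4 or control replicate 3), 2 to 6 lower (2 without anti-CD4 replicate 4) and 3 to 9 in all. Differences near 0 changed sign. Lama2 was 0.026 with array median scaling, 0.041 with array weights, and -0.093 to 0.055 with 1 array left out (0.043, 0.046 and 0.055 without anti-CD4 replicate 2, control replicate 1 and control replicate 2). Col3a1 was 0.14 with array weights, and -0.34 to 0.15 with 1 array left out (above 0 without anti-CD4 replicate 3 or control replicate 2). Col1a1 and Col1a2 were -0.12 and -0.19 with the meningeal fibroblast covariate, -0.17 and -0.32 with the endothelial and pericyte covariate, and ranged over -0.069 to 0.25 and -0.11 to 0.24 with 1 array left out, lowest without control replicate 3. Col19a1 was 0.0015 after normexp background correction, and Col25a1 was 0.0027 with the mean of its probes, where its other probes lie above 0. Col11a1 has no value where a probe had to be above background on all 8 arrays. The cause of the other changes was not tested.

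Arrays with the same replicate number deviated together in 1 of 4 pairs, with correlations of -0.45, -0.29, -0.31 and 0.30, so the numbers were not taken to pair the samples. They equal the slide column. With the replicate number as a block, 3 genes were higher and 5 lower at an unadjusted p under 0.05, with Lamb2 no longer among them, and all rows had 980 higher and 1230 lower. The array number limits what can be seen. Over all rows, 11 passed the adjusted threshold without anti-CD4 replicate 3, 2 with the authors' deposited table and 2 with a trended, robust variance, and 0 otherwise.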
